A study of Homarus americanus with 19 samples.

Results

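The transcripts described here are those of the protein-coding ortholog groups with the most counts in whole American lobster (Homarus americanus) control larvae. An ortholog group is a set of matching genes of different crustacean species, and reads were assigned to it by translated match to their proteins. Members were the groups with a mean of 1000 CPM or more over the 6 control larvae, where CPM is a group's count divided by the larva's total count and multiplied by 1000000. The rule took 170 of the 13933 ortholog groups (1.22%). They were thus chosen by their CPM in the control larvae, and their high level there is not a result.

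The libraries came from 6 larvae exposed for 24 h to 1-methylnaphthalene at 0.3 mg/L, an aromatic hydrocarbon used as the positive control, 7 larvae held in a 72% WAF, the water accommodated fraction left when heavy crude oil is mixed with seawater, and 6 control larvae kept in seawater filtered at 0.22 µm. The methylnaphthalene concentration is that of the methods, while the study's supplementary note gives a higher one. The methods place the larvae at stage I, the first free-swimming stage, while the sample labels give an embryonic day. Each library was made from RNA of 1 whole larva, so a lower share can mean fewer cells of a type or less RNA per cell, and these cannot be told apart. A share also falls when other groups take more of the larva's total. No strain or parentage was given, so it is not known whether larvae of a group shared a brood.

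Total counts per larva ranged from 4580939 to 22681602, and the lowest count of any member in any larva was 1066, so counting error was small beside the spread between larvae. Replicate larvae of 1 group differed beyond counting noise, with a lowest chi-square per degree of freedom of 12.3.

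Much of a crustacean larva's messenger RNA serves muscle, the protein synthesis machinery and the cuticle. Muscle contracts when calcium, acting through the troponins, lets myosin pull on actin, and arginine kinase refills ATP from a phosphagen store in invertebrate muscle. Ribosomal proteins build the ribosome and are produced together in near-fixed proportion. Crustacyanins bind the carotenoid astaxanthin and give lobster shell its blue colour, and apolipophorins carry lipid through the hemolymph.

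Names were found for 35 of the 170 members, and the rest are given by their identifier. Of those named, 23 came from a shortened list that the study ordered by its own significance for methylnaphthalene, so a member that changed was more likely to have a name. Named lists below are therefore no fair sample of the members, and their counts are no independent evidence of a direction. The highest member was an actin-like group (s2f_0000043030), followed by muscle myosin heavy chain (s2f_0000014048), with means of 36427 ± 5570 and 34523 ± 13104 CPM in control larvae (SD, n = 6). Arginine kinase (s2f_0001145007) ranked 4th, crustacyanin-A2 subunit-like (s2f_0001152004) ranked 5th and troponin T (s2f_0002032006) ranked 9th. The other groups of the 10 highest were 4 with no name and an uncharacterized protein (s2f_0383136001).

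The control means spread widely within the set. Of the members, 7 reached 10000 CPM, 16 lay from 5000 to 10000, 60 from 2000 to 5000, and 87 below 2000. In all 6 control larvae 129 members held 1000 CPM or more, and 110 did so in all 19 larvae. Just inside the threshold were s2f_0018566001 at 1010, s2f_0000001074 at 1008 and s2f_0006366002 at 1007 CPM in control larvae. Just outside it were s2f_0000298002 at 990.2, s2f_0001256003 at 980.6 and s2f_0002759001 at 978.6 CPM, and no test applies at this border.

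The first question was how much of each larva's ortholog group counts the set took up. These are reads matched to an ortholog group, not corrected for gene length. A share of them is therefore not a share of all messenger RNA. The 170 members held 49.8% ± 3.9 of the counts in methylnaphthalene larvae (SD, n = 6), 52.9% ± 2.7 in WAF larvae (n = 7) and 54.1% ± 2.1 in control larvae (n = 6). Methylnaphthalene larvae ran from 43.6% to 53.3% with a median of 50.7%, WAF larvae from 48.5% to 55.7% with a median of 53.0%, and control larvae from 51.6% to 57.1% with a median of 54.5%. The lowest shares were those of methylnaphthalene larvae 5 and 4, at 43.6% and 47.2%, and the ranges of all 3 groups overlapped. Within each group the last-numbered larvae had the lowest shares. Methylnaphthalene larvae 4 to 6 had 43.6% to 49.0%, against 52.4% to 53.3% in larvae 1 to 3. WAF larvae 6 and 7 had 48.5% and 50.3%, against 52.9% to 55.7% in larvae 1 to 5. Control larvae 5 and 6 had 51.6% and 51.9%, against 54.5% to 57.1% in larvae 1 to 4. The cause of this split was not tested. The difference in means was -4.33 percentage points for methylnaphthalene and -1.18 points for WAF larvae, both minus control. The WAF difference ran from -1.69 to -0.43 points without 1 larva. It was 0.38 points when the 10 highest members were left out of both the set and each larva's total. As a part of the full total, the members below those 10 held 39.2% in WAF and 37.6% in control larvae. Since members were chosen for high values in the control larvae, neither difference was tested. The difference was -3.16 points for methylnaphthalene minus WAF larvae, a comparison the rule did not use, and this did not pass an exact permutation test (two-sided p = 0.117).

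**Figure D1:**
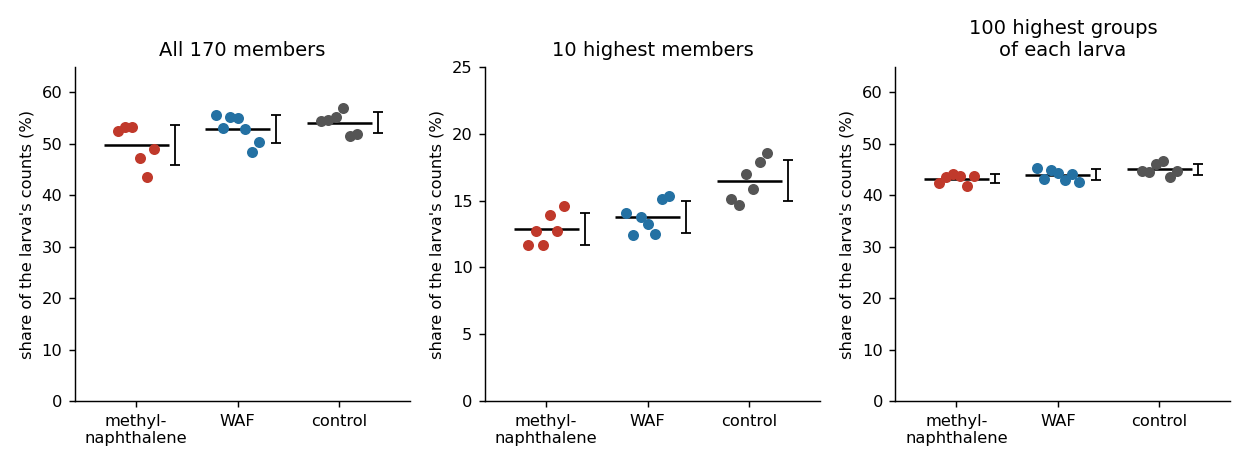
Share of each larva's counts (%) taken by the 170 members, by the 10 highest members and by each larva's own 100 highest ortholog groups. Points are larvae (6 methylnaphthalene, 7 WAF, 6 control), the line is the group mean and the bar beside it 1 SD. The 10 highest members take 11.7% to 14.6% in methylnaphthalene larvae and 14.7% to 18.5% in control larvae.

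Other measures were chosen without use of the group labels. When ortholog groups were instead taken at a mean of 1000 CPM over all 19 larvae, 170 groups passed again and 163 of them were members. Their share was 52.0% in methylnaphthalene, 53.5% in WAF and 53.9% in control larvae. The exact permutation p, adjusted over 3 comparisons, was 0.432 for methylnaphthalene against control, 0.677 for WAF against control and 0.432 for methylnaphthalene against WAF (n = 6, 7 and 6). Of the 7 groups in this set that were not members, hemocyanin C chain-like averaged 17715.5 CPM in methylnaphthalene and 726.0 in control larvae. Such groups entered through their values in exposed larvae and raise the share there. The smaller differences of this set at 1000 CPM thus follow partly from the choice, and its p-values do not test the member share. At 2000 CPM over all 19 larvae the differences from control were -1.97 points for methylnaphthalene and -1.54 points for WAF larvae. Each larva's own 100 highest ortholog groups held 43.3% ± 0.94 in methylnaphthalene larvae, 44.0% ± 1.07 in WAF larvae and 45.1% ± 1.11 in control larvae. Here the difference of -1.80 points for methylnaphthalene minus control larvae passed (two-sided exact permutation p = 0.00866, adjusted p = 0.0260), with methylnaphthalene larvae from 41.8% to 44.1% and control larvae from 43.7% to 46.7%. That call was lost when the 10 highest (p = 0.528) or the 300 highest groups of each larva (p = 0.346) were counted in the same exact permutation test. By this measure WAF against control larvae did not pass (-1.10 points, exact permutation p = 0.100, adjusted p = 0.150), nor did methylnaphthalene against WAF larvae (-0.70 points, p = 0.236).

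Muscle and shell pigment members took a smaller mean part of the counts in exposed larvae. The 11 members of the muscle list held 8.76% ± 3.29 of counts in methylnaphthalene larvae, 8.73% ± 3.52 in WAF larvae and 12.9% ± 2.59 in control larvae. The net -4.33 points between methylnaphthalene and control larvae were the sum of -7.87 points over 81 members with a lower share and 3.54 points over 89 with a higher one, and the muscle members summed to -4.17 points. Between WAF and control larvae, 50 members summed to -6.85 and 120 to 5.67 points, with -4.20 points for the muscle members and 3.82 for members with no name. Actin-like, myosin heavy chain and crustacyanin-A2 alone summed to -3.38 points in methylnaphthalene and -3.31 points in WAF larvae. Against these, apolipophorins-like (s2f_0001908003) added 1.59 points in methylnaphthalene larvae.

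The actin-like group, the thin filament protein of muscle, had 12502 to 36898 CPM in methylnaphthalene larvae (median 21824), 14500 to 39326 in WAF larvae (median 18371) and 30289 to 43259 in control larvae (median 35141). Muscle myosin heavy chain, the thick filament motor, had 11251 to 36487 CPM in methylnaphthalene larvae (median 21811), 12030 to 45316 in WAF larvae (median 14562) and 22659 to 56830 in control larvae (median 30656). For both, larvae 1, 2 and 3 of methylnaphthalene and larvae 1 to 5 of WAF were the low ones, while methylnaphthalene larvae 4, 5 and 6 and WAF larvae 6 and 7 lay at or near the control range. Neither passed the edgeR quasi-likelihood test with Benjamini-Hochberg adjustment (actin-like log2 fold change -0.68, adjusted p = 0.183 for methylnaphthalene, and -0.63, adjusted p = 0.574 for WAF).

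Arginine kinase varied little within groups. It had 10785 to 13368 CPM in methylnaphthalene larvae (median 11530), 10940 to 16458 in WAF larvae (median 12845) and 15414 to 17356 in control larvae (median 16104). All methylnaphthalene larvae were below all control larvae, while WAF larvae 1 and 7 reached the control range, but the edgeR test did not call it (log2 fold change -0.47, adjusted p = 0.135). Troponin T, which anchors the calcium switch to the thin filament, had 4181 to 7748 CPM in methylnaphthalene larvae (median 5572), 4412 to 8764 in WAF larvae (median 5383) and 7759 to 10093 in control larvae (median 8502). The methylnaphthalene and control larvae did not overlap, and troponin T fell in methylnaphthalene larvae (edgeR log2 fold change -0.58, SE 0.17, adjusted p = 0.0468). Leaving out 1 larva ended that call in 13 of 19 refits, with adjusted p up to 0.119, as did 3 of 7 other settings (no TMM scaling, no filter and only both groups fitted, adjusted p up to 0.102). Sarcoplasmic calcium-binding protein 1 (s2f_0014831001), which buffers calcium in crustacean muscle, had 1208 to 6226 CPM in methylnaphthalene larvae (median 3895), 1822 to 7620 in WAF larvae (median 3895) and 6738 to 9305 in control larvae (median 7844), with no overlap between methylnaphthalene and control (edgeR log2 fold change -1.17, adjusted p = 0.0768).

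Of the 11 muscle members, 1 fell and none rose in methylnaphthalene larvae, where 0.611% of all 10974 tested ortholog groups fell and 5.6% rose. None passed in WAF larvae, where 0.282% of all groups were called. The median log2 fold change was -0.58 in methylnaphthalene and -0.62 in WAF larvae, against -0.03 and -0.02 over all groups. Among all 25 named muscle groups tested, members included, the medians were -0.23 and -0.25, and 2 rose and 2 fell in methylnaphthalene larvae. The list is a keyword match and also took up actin, cytoplasmic 1 (s2f_0000043024), a cytoskeletal actin, which had 2547 ± 308 CPM in methylnaphthalene, 2600 ± 510 in WAF and 2454 ± 349 in control larvae. Myosin regulatory light chain 2 (log2 fold change -0.58), the alkali myosin light chain (-0.65), troponin I (-0.59), the SERCA calcium pump (-0.23) and titin-like (-0.20) were not called in methylnaphthalene larvae either.

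The named ribosomal members ran the other way across larvae. The 7 of them, from 60S protein L10 to 40S protein S16, held 1.44% ± 0.49 of counts in methylnaphthalene larvae, 1.65% ± 0.41 in WAF larvae and 1.38% ± 0.27 in control larvae, and none passed the edgeR test in any comparison. Within methylnaphthalene larvae the share was 1.75% to 2.09% in larvae 1, 2 and 3 and 0.954% to 1.08% in larvae 4, 5 and 6. WAF larvae 1 to 5 had 1.78% to 2.01%, WAF larvae 6 and 7 had 0.922% and 1.25%, and control larvae ran from 1.04% to 1.77%. Ribosomal protein L10 (s2f_0001477004), a subunit of the large ribosomal particle, had 2233 to 4672 CPM in methylnaphthalene larvae (median 3199), 2237 to 4638 in WAF larvae (median 4055) and 2361 to 3985 CPM in control larvae (median 3281).

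**Figure D2:**
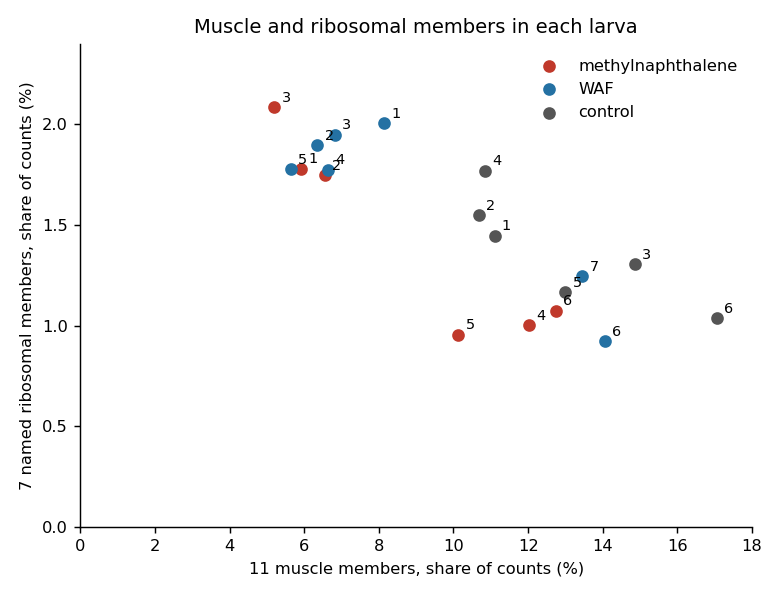
Share of counts (%) of the 11 muscle members (x axis) and the 7 named ribosomal members (y axis), 1 point per larva, coloured by group and numbered by replicate. Methylnaphthalene larvae 1 to 3 and WAF larvae 1 to 5 sit at 5.20% to 8.15% muscle, and the other exposed larvae at 10.1% to 14.1%, with the control larvae from 10.7% to 17.1%.

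Many members without a name followed the ribosomal ones. Over the 19 larvae, 89 members, 82 of them unnamed, had a Pearson r above 0.9 between their log2 CPM and the log2 sum of the named ribosomal members (a member itself left out of the sum), and 13 members, 4 of them unnamed, had an r above 0.9 with the summed muscle members. None of the 89 was positively correlated with the muscle sum. These are descriptions over larvae of 3 groups whose CPM are parts of 1 total, so a rise of some members lowers others. The share of all ortholog groups with such an r is not given, so the counts show no trait particular to the members. The 82 unnamed groups held 19.6% ± 6.2 of counts in methylnaphthalene, 22.6% ± 5.5 in WAF and 19.1% ± 3.4 in control larvae. They include s2f_0006556002, the member ranked 8th, with 5416 to 14677 CPM in methylnaphthalene, 5083 to 15352 in WAF and 6685 to 12638 in control larvae.

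In a second table of estimated counts per lobster transcript, made with Kallisto, 1 non-coding RNA (LOC121857831) moved with this axis. It took 17.9% to 26.4% of Kallisto counts in methylnaphthalene larvae 1 to 3 and 7.44% to 8.68% in larvae 4 to 6, 23.2% to 28.0% in WAF larvae 1 to 5, 7.47% and 10.4% in WAF larvae 6 and 7, and 10.2% to 20.5% in control larvae. The Seq2Fun total as a percentage of the Kallisto total ran against it, at 33.0% to 38.6% in methylnaphthalene larvae 1 to 3, 47.4% to 49.3% in larvae 4 to 6, and 51.0% in WAF larva 6. Its part in the members' shares was not tested. Among Kallisto genes averaging 100 CPM or more, LOC121857831 had the pattern most like that of s2f_0006556002 (r = 0.99 over 19 larvae), then LOC121858285 (r = 0.98).

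Likeness of pattern over larvae did not single out 1 lobster gene for each leading member, and the nearest gene could encode another protein. Crustacyanin-A2 was closest to the lobster genes LOC121869696, itself named crustacyanin-A2, and LOC121869706, named crustacyanin-C1 (r = 0.99 for both). The actin-like group was closest to LOC121866781, a troponin I gene, and LOC121877269, a myosin light chain 1 gene (r = 0.99 for both), and troponin T to LOC121866781 and LOC121860664 (r = 0.99 for both). Myosin heavy chain was closest to LOC121853933 and LOC121880141 (r = 0.98 for both). Arginine kinase was closest to LOC121873631 (r = 0.95), then LOC121855993, a 60S ribosomal protein L12-like gene (r = 0.89). The member ranked 3rd, s2f_0006541001, was closest to LOC121871017, a transcribed pseudogene (r = 0.96), then LOC121858285 (r = 0.92). The member ranked 7th, s2f_0000418009, was closest to LOC121880021 (r = 0.97) and LOC121880022 (r = 0.95). The stable s2f_0000288009 matched LOC121871458 (r = 0.84) and LOC121871869 (r = 0.73) less closely, as did s2f_0383136001 with LOC121873698 (r = 0.74) and LOC121872989 (r = 0.73).

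The uncharacterized protein s2f_0383136001 carries the name of a lobster gene, LOC121876248, and could be read in both tables, though LOC121876248 was not among the 2 Kallisto genes closest in pattern. In ortholog group counts it had 10330 ± 1938 CPM in methylnaphthalene, 9519 ± 1161 in WAF and 8027 ± 742 CPM in control larvae, and in Kallisto counts LOC121876248 had 23769 ± 1711 in methylnaphthalene, 20613 ± 2684 in WAF and 18252 ± 1516 CPM in control larvae. Both tables gave the same order of means, but the ortholog group was not called (edgeR log2 fold change 0.40, adjusted p = 0.389 for methylnaphthalene, and 0.27, adjusted p = 0.746 for WAF).

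In methylnaphthalene larvae, 6 members passed the edgeR test at an adjusted p below 0.05 (3.53% of members), against 682 of the 10974 ortholog groups tested (6.21%). Members were chosen on the control larvae compared here, so the calls against control describe the members and their count is not read against that of all groups. The members that rose were apolipophorins-like, glutamine synthetase-like (s2f_0001070005) and phenoloxidase-activating factor 2-like (s2f_0002689008), and those that fell were crustacyanin-A2, HSP 90-beta (s2f_0000398007) and troponin T. Higher calls made up 5.6% and lower calls 0.611% of all groups tested. At the study's fold change threshold, an absolute log2 fold change above 1.5, 2 members remained, apolipophorins-like and crustacyanin-A2, against 2.82% of all groups. With DESeq2, 12 members were called (7.06%), against 8.18% of all groups. None of the members without a name passed in this or the other comparisons by edgeR. Most names came from a list ordered by the study's own significance for methylnaphthalene, so a changed member was likely to have one. The absence of calls is thus no result about the unnamed members.

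**Figure D3:**
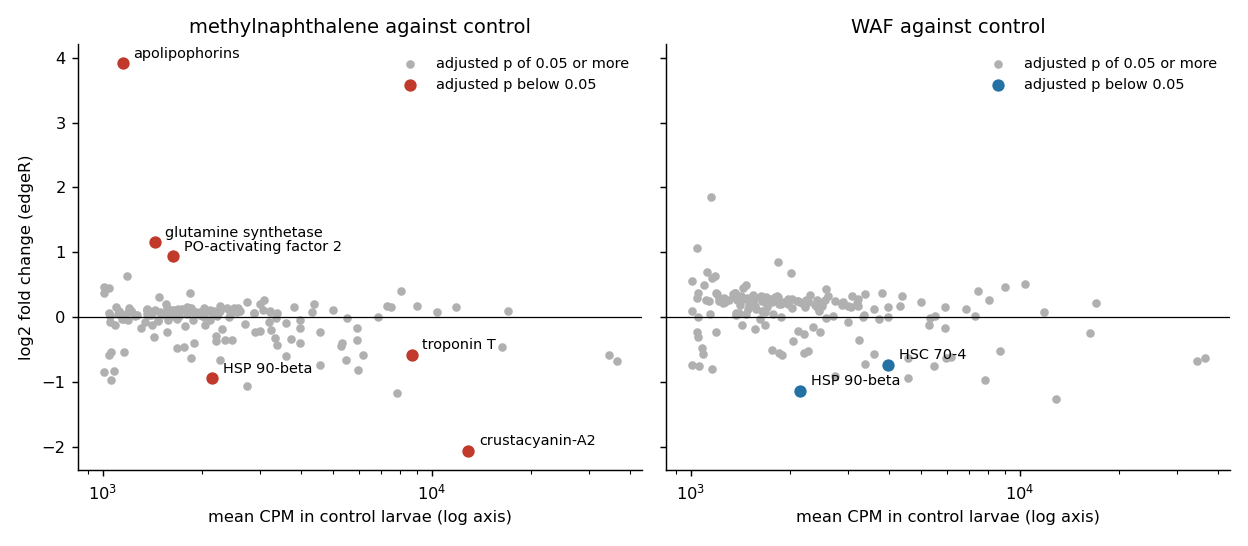
edgeR log2 fold change of the 170 members against their mean CPM in control larvae (log axis), for methylnaphthalene (left) and WAF (right), both relative to control. Coloured points have an adjusted p below 0.05 and are named. They number 6 for methylnaphthalene and 2 for WAF, and the highest point is apolipophorins-like at 3.92.

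Apolipophorins-like had 5943, 8012, 12488, 26735, 28394 and 20669 CPM in methylnaphthalene larvae 1 to 6, against 477 to 2437 CPM in control larvae (median 722.7). WAF larvae 1 to 5 had 168 to 1138 CPM, but WAF larvae 6 and 7 had 21612 and 7077 CPM. All methylnaphthalene larvae lay above all control larvae, and WAF larvae lay on both sides of them. The group rose in methylnaphthalene larvae (edgeR log2 fold change 3.92, SE 1.05, 15.1-fold, adjusted p = 0.0277), while in WAF larvae it was not called (1.85, adjusted p = 0.661), nor between methylnaphthalene and WAF larvae (2.07, adjusted p = 0.320). The methylnaphthalene call was lost in 5 of 19 refits without 1 larva (adjusted p up to 0.0718) and without TMM scaling (adjusted p = 0.0513). The larvae highest in apolipophorins within a group, methylnaphthalene 4 to 6 and WAF 6 and 7, were also those high in muscle members.

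Glutamine synthetase, which joins ammonia to glutamate, had 2639 to 4123 CPM in methylnaphthalene larvae (median 2867), 1657 to 2497 in WAF larvae (median 1905) and 947.4 to 1966 CPM in control larvae (median 1525). Methylnaphthalene larvae lay above every larva of both other groups. It rose 2.23-fold over control (edgeR log2 fold change 1.16, SE 0.24, adjusted p = 0.00441), and did not pass against WAF (0.70, adjusted p = 0.121). Phenoloxidase-activating factor 2-like, of a serine protease-like family that takes part in activating the melanization enzyme of arthropods, had 2213 to 4082 CPM in methylnaphthalene larvae (median 3385), 1629 to 2492 in WAF larvae (median 1916) and 1159 to 1893 in control larvae (median 1702). It was higher in every methylnaphthalene than in every control larva and rose 1.92-fold (edgeR log2 fold change 0.94, SE 0.22, adjusted p = 0.0110). Both calls held in all 19 refits that left out 1 larva.

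Crustacyanin-A2 had 1919 to 7166 CPM in methylnaphthalene larvae (median 2310), 1651 to 12603 in WAF larvae (median 3370) and 6233 to 26985 in control larvae (median 9587). Methylnaphthalene larva 5, at 7166 CPM, was above the lowest control larva, and the next methylnaphthalene larva had 3271 CPM. The group fell in methylnaphthalene larvae (edgeR log2 fold change -2.06, SE 0.51, adjusted p = 0.0176), and WAF larvae did not pass (-1.26, adjusted p = 0.550). Of the other cuticle members, cuticle protein AMP1A-like had 3477 ± 1374, 3946 ± 1234 and 5961 ± 2301 CPM, and the chitin-degrading enzyme beta-N-acetylglucosaminidase 3841 ± 1094, 4767 ± 1478 and 5284 ± 1612 CPM, in methylnaphthalene, WAF and control larvae. Neither was called in any comparison. Of all 14 named cuticle and pigment groups tested, members included, 6 rose and 1 fell in methylnaphthalene larvae, with a median log2 fold change of 0.58 against -0.82 for the 3 members.

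**Figure D4:**
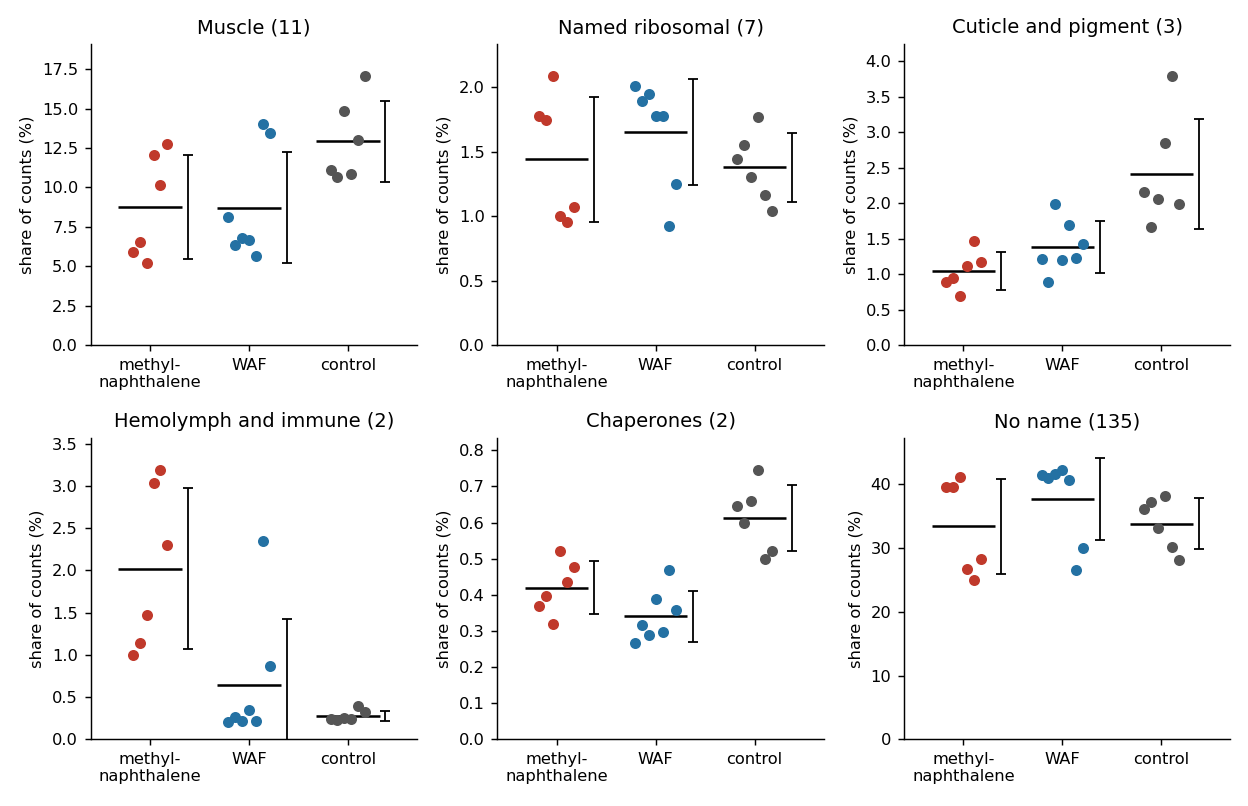
Share of counts (%) in each larva for 6 sets of members, with the number of members in brackets, exposed groups left of control. Points are larvae, lines group means and bars 1 SD (cut at 0 where they reach it). Chaperones hold 0.420% in methylnaphthalene and 0.341% in WAF larvae against 0.612% in control larvae.

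In WAF larvae 2 members passed the test (1.18%), against 31 of all groups (0.282%), and both fell, as did 0.2% of all groups. They are the 2 chaperones of the set, HSP 90-beta, which helps signalling proteins fold, and heat shock 70 kDa protein cognate 4 (s2f_0000056024), a member of the HSP70 family that many insect and crustacean cells make without stress. HSP 90-beta had 663.5 to 1709 CPM in methylnaphthalene larvae (median 1092), 674.8 to 1504 in WAF larvae (median 911.0) and 1643 to 2745 in control larvae (median 2125). All WAF larvae and all but 1 methylnaphthalene larva lay below all control larvae. It fell in both exposed groups, with edgeR log2 fold changes of -0.94 (SE 0.22, adjusted p = 0.0105) in methylnaphthalene and -1.14 (SE 0.21, adjusted p = 0.0155) in WAF larvae. Both comparisons share the control larvae, which also chose the members, and such a choice favours lower values in exposed larvae. The calls thus describe the members, and their count is not read against that of all groups. The WAF call was lost in 3 of 19 refits without 1 larva (adjusted p up to 0.0526).

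The HSP70 cognate had 2518 to 3503 CPM in methylnaphthalene larvae (median 3080), 2007 to 3182 in WAF larvae (median 2297) and 3346 to 4696 in control larvae (median 4058). No WAF larva reached the control range, while methylnaphthalene larva 4 did. The WAF call lay at the threshold (edgeR log2 fold change -0.74, SE 0.16, adjusted p = 0.0498) and was lost in 17 of 19 refits without 1 larva, with adjusted p up to 0.190, and in 3 of 7 other settings (no filter, the replicate block and only both groups fitted, adjusted p up to 0.142). In methylnaphthalene larvae it was not called (-0.41, adjusted p = 0.195). Of all 17 named chaperones tested, 5 fell and 3 rose in methylnaphthalene larvae and 4 fell in WAF larvae. No member reached the fold change threshold in WAF larvae, against 0.118% of all groups.

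**Figure D5:**
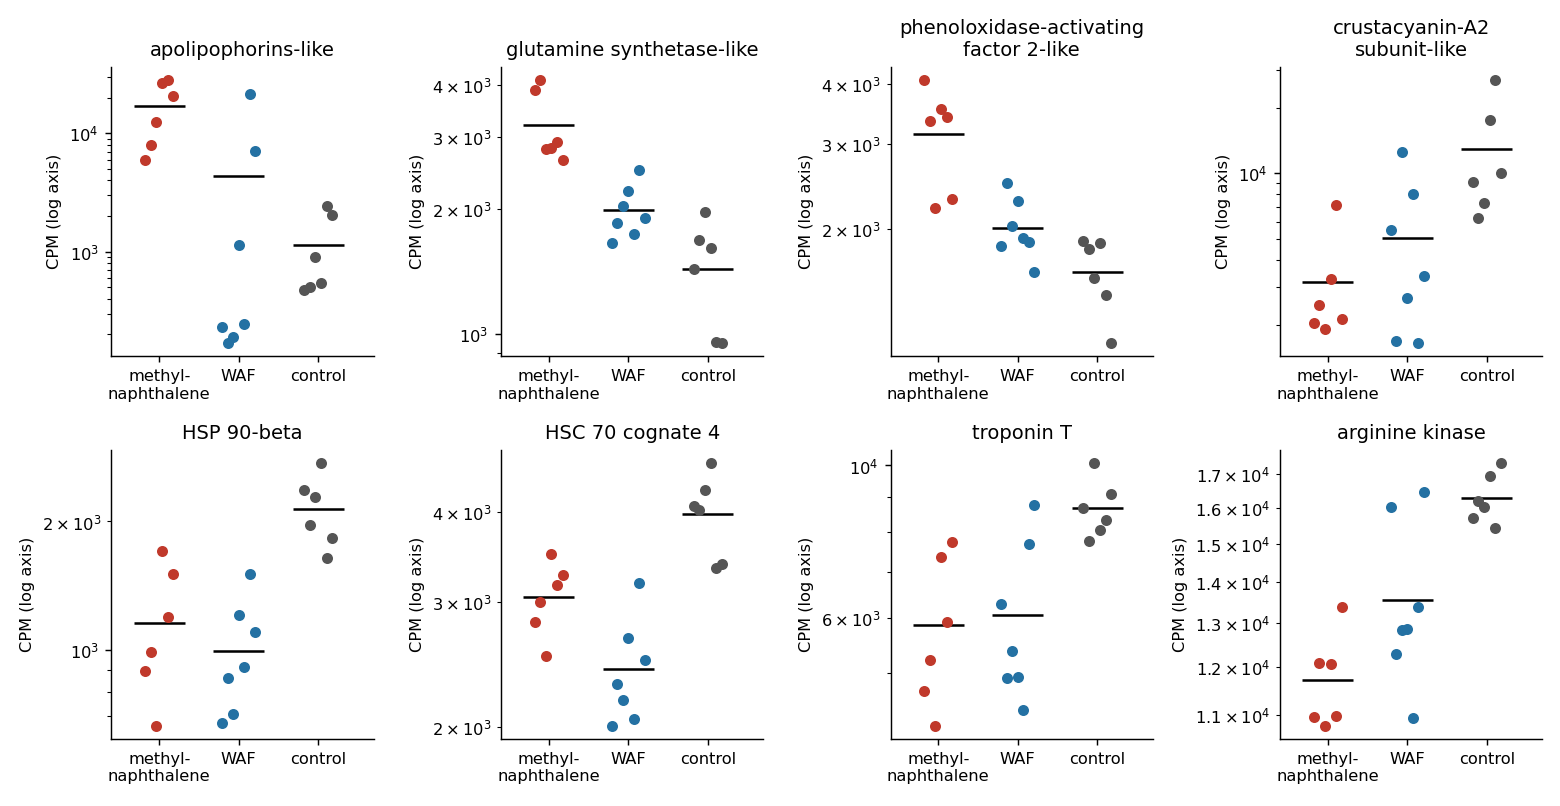
CPM (log axes, each with its own range) of 8 members in each larva, exposed groups left of control, with the group mean as a line. The first 7 passed the edgeR test in methylnaphthalene or WAF larvae, and arginine kinase did not. Apolipophorins-like splits the WAF larvae into 5 at 168 to 1138 CPM and 2 at 7077 and 21612 CPM.

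Between methylnaphthalene and WAF larvae no member passed (0 of 170), against 257 of all groups (2.34%). At an unadjusted p below 0.05 there were 5 members by edgeR (2.94% of members, against 13.7% of all groups). After adjustment DESeq2 called 0 members, against 471 of 10761 groups (4.38%). The limma test called 1 member, and its share over all groups is not given. The log2 fold change was below 0 for 141 members and above 0 for 29 (17.1%, against 51% of all groups), with a median of -0.16 against 0.01 over all groups (-0.29 to -0.05 without 1 larva). Relative to control, 60.6% of members were above 0 in methylnaphthalene larvae (against 45.7% of all groups), with a median of 0.05, and 72.4% in WAF larvae (against 47% of all groups), with a median of 0.20. Of the members, 146 stayed within 0.5 on the log2 scale in methylnaphthalene larvae and 136 in WAF larvae. Members did not vary independently, as 89 of the 170 followed the ribosomal sum over the larvae (r above 0.9). That sum differed between larvae of 1 group. The counts and medians of direction thus describe the members and are no separate evidence of a shift.

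Complete separation of groups was rare. In 7 members (4.12%) methylnaphthalene and control larvae did not overlap, against 4.52% of all groups, and these were arginine kinase, troponin T, sarcoplasmic calcium-binding protein 1 and a nesprin-1-like group (s2f_0001995003) on the low side and the 3 groups that rose on the high side. WAF and control larvae did not overlap in the 2 chaperones (1.18%, against 0.583% of all groups). Methylnaphthalene and WAF larvae did not overlap in 2 members (1.18%, against 0.556%), glutamine synthetase, higher in methylnaphthalene, and the nesprin-1-like group, lower in it. Nesprins link the nucleus to the cytoskeleton, and this group had 1041 to 1338 CPM in methylnaphthalene larvae (median 1218), 1388 to 1756 in WAF larvae (median 1515) and 1507 to 1982 CPM in control larvae (median 1671), without passing the edgeR test (adjusted p = 0.0786 against control and 0.287 against WAF).

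A second nesprin-1-like group (s2f_0037615001) had another pattern, with 1104 to 4732 CPM in methylnaphthalene, 1022 to 5076 in WAF and 3471 to 6729 CPM in control larvae, low in the same larvae as the muscle members (r = 0.99 with their sum over 19 larvae). Of the remaining members of the cytoskeleton and metabolism lists, none passed the test. Tubulin beta, of the microtubules, had 2508 ± 123, 2717 ± 302 and 2703 ± 243 CPM, and glyceraldehyde-3-phosphate dehydrogenase, of glycolysis, had 1929 ± 354, 2086 ± 258 and 2473 ± 264 CPM, in methylnaphthalene, WAF and control larvae. The lists for digestion, mitochondrial energy and detoxification held no named member, and the 5 named members in no list, among them hemicentin-1-like and an SLC18B1-like transporter, were not called in any comparison.

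Members differed in how much replicate larvae varied. The median coefficient of variation was 29.9% in methylnaphthalene, 24.5% in WAF and 19.4% in control larvae. The steadiest members in control larvae were the unnamed s2f_0000299003 (2.36%) and s2f_0000969010 (3.55%), then arginine kinase (4.56%). The first had 1401 ± 66.0 CPM in methylnaphthalene, 1415 ± 82.5 in WAF and 1369 ± 32.3 in control larvae, and the second 910.5 to 1048, 915.1 to 1166 and 986.6 to 1087 CPM in the same groups. The most variable were the unnamed s2f_0013965001 (75.4%), apolipophorins-like (75.3%) and the unnamed s2f_0112980001 (69.9%). In control larvae s2f_0112980001 had 507 to 4670 CPM, low in larvae 5 and 6, and s2f_0013965001 had 230.7 to 2464 CPM, low in the same larvae.

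Because the rule looked only at control larvae, it passed over some groups that were abundant mainly in exposed larvae. These entered only through the values of exposed larvae, so their differences are given as a description, with no test. In the larvae's own ranking of 170 groups, 140 to 158 members appeared in methylnaphthalene, 144 to 163 in WAF and 152 to 166 in control larvae. Of the 7 groups that reached 1000 CPM over all 19 larvae but not in controls, hemocyanin C chain-like (s2f_0002890013), a subunit of the copper protein that carries oxygen in hemolymph, had 3665 to 35949 CPM in methylnaphthalene larvae and 146.1 to 1576 in control larvae. WAF larvae 1 to 5 had 79.1 to 410.5 CPM of it and WAF larvae 6 and 7 had 24310 and 7223 CPM, the larvae that were also high in apolipophorins. S-adenosylmethionine synthase (s2f_0001013001), which makes the cell's methyl donor, averaged 2184 ± 694 CPM in methylnaphthalene, 938.2 ± 850.8 in WAF and 840.8 ± 215.5 CPM in control larvae.

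Alpha-crystallin A chain-like (s2f_0027698001), a small heat shock protein, had 851.0 to 3453 CPM in methylnaphthalene larvae, 101.8 to 613.9 in WAF larvae and 213.8 to 866.9 in control larvae. The methylnaphthalene and control larvae overlapped by a single methylnaphthalene larva. Phosphoenolpyruvate carboxykinase (s2f_0004494001), an enzyme of glucose synthesis, had 1400 to 2258 CPM in methylnaphthalene, 875.9 to 1463 in WAF and 515.5 to 818.4 CPM in control larvae. No exposed larva overlapped the control larvae. The remaining groups of the 7 had control means nearer 1000 CPM. In methylnaphthalene, WAF and control larvae, s2f_0002759001 averaged 902.5, 1291 and 978.6 CPM. In the same order s2f_0001955002 averaged 956.1, 1105 and 921.1 CPM, and s2f_0000001015 averaged 1234, 1007 and 861.3 CPM.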

How the data were processed

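RNA-seq tables of 19 whole larvae, 1 library per larva, were analysed. The authors filtered reads with fastp at a minimum quality of 25 and deposited, for each ortholog group, the raw count of reads that Seq2Fun matched after translation to crustacean proteins (2 mismatches at most, a match of 19 or longer, a BLOSUM62 score from 80). They also deposited estimated counts per RefSeq transcript from Kallisto (GMGI_Hamer_2.0), which were summed per gene here. Neither table was normalized.

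Shares and CPM used untransformed totals. Ortholog groups with at least 4 counts in total were kept, the 15% with the smallest interquartile range were removed, and 10974 were fitted in edgeR 4.0.16 (R 4.3.3) with TMM, the quasi-likelihood test, all 19 larvae and Benjamini-Hochberg adjustment over all groups. In simulated data on these 10974 groups for methylnaphthalene against control, 58 of 100 groups changed by 1 and 96 of 100 changed by 2 on the log2 scale were called, with 8 false calls. Shares were compared by exact permutation over all 924 or 1716 splits. Alternatives were limma 3.58.1, DESeq2 1.42.0, no TMM, other filters, 2-group fits, a replicate block, other thresholds and leaving out each larva.

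Names came from the study's supplementary lists, and function lists are keyword matches. Named members are the 10 highest, those called, those named and in a list, those at the threshold, those with the lowest and highest variation, and the closest Kallisto genes. The members and lists were chosen with earlier results of these data known. The p-values weigh a difference between groups against the spread between these larvae, which are taken as independent. No sequences are printed.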

Additional observations from a re-analysis of the deposited data

Results flagged for a closer look

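For 24 values given per larva, each group of 6 or 7 larvae was searched for a larva far from its group, 72 groups in all, of which chance alone would mark about 1 in 20, and 3 were marked. Methylnaphthalene larva 5 had 7166 CPM of crustacyanin-A2, above the other methylnaphthalene larvae. WAF larva 6 had 21612 CPM of apolipophorins-like, above the other WAF larvae. Control larva 1 had 10760 CPM of the unnamed s2f_0000288009, below the other control larvae, which lay between 11793 and 12295 CPM.

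In the set chosen over all 19 larvae, 2 groups stood out between the exposures in the edgeR fit of all ortholog groups. The log2 fold change of methylnaphthalene over WAF larvae was 2.97 for alpha-crystallin A chain-like and 0.67 for phosphoenolpyruvate carboxykinase. Both entered that set through their values in exposed larvae, so these are descriptions and not tests. Neither is among the 170 groups chosen on control larvae, of which none passed this comparison.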

How the results depend on the processing

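No result with a test changed direction among those called. For methylnaphthalene against control the number of members called was 12 with DESeq2, 2 with the fold change threshold and 10 for groups chosen over all 19 larvae, against 6 in the report, and 4 to 8 without 1 larva. For WAF against control it was 1 without the filter, 1 with the replicate block, 1 with only both groups fitted and 0 with the fold change threshold, against 2, and 0 to 2 without 1 larva, being 0 without WAF larva 3 and without control larvae 1 or 4. For methylnaphthalene against WAF it was 1 with limma, 2 with the replicate block and 2 for groups chosen over all 19 larvae, against 0, and 0 to 1 without 1 larva, being 1 without WAF larva 6. The counts over all 19 larvae include groups that entered through their values in exposed larvae. Except for DESeq2 and the fold change threshold, the share over all groups under these settings is not given. The counts therefore describe how steady the calls were and are no result about the members. The cause was not tested.

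The difference in member share between methylnaphthalene and control larvae was -1.91 points for groups chosen over all 19 larvae and -1.33 for those chosen over the 13 exposed larvae, against -4.33. Both of these sets include groups that entered through their values in exposed larvae, so their smaller differences follow partly from the choice. The member share difference between methylnaphthalene and WAF passed at 2000 CPM (-2.95 points, exact permutation p = 0.00758). For groups chosen over all 19 larvae, a threshold of 2000 CPM gave -1.97 points for methylnaphthalene (exact permutation p = 0.00217, the smallest that 924 splits can give) and -1.54 for WAF against control (p = 0.00350). The share of the 100 highest groups in methylnaphthalene larvae became -0.82 points with the 10 highest and -1.36 with the 300 highest. For WAF against control that share difference ran from -1.38 to -0.78 points without 1 larva, passing without WAF larva 1 (-1.34 points, exact permutation p = 0.0476). An alternative chosen after seeing the data left the apolipophorins-like group, a member, and the hemocyanin group, not a member, out of each larva's total as well. It gave -4.36 points for methylnaphthalene against control. On the full total, apolipophorins-like added 1.59 points to that difference, so the -4.36 is not on the same scale as the -4.33.

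Replicate numbers did not pair the larvae. Correlations of same-numbered larvae ran from -0.40 to 0.63, and at most 2 of 6 larvae were closest to their own number, and the block moved the count for methylnaphthalene against control to 8. The median log2 fold change of members for methylnaphthalene against control was -0.002 with the replicate block and ran from -0.11 to 0.17 without 1 larva. For WAF against control it was 0.25 with the block and 0.12 to 0.31 without 1 larva, and for methylnaphthalene against WAF -0.25 and -0.29 to -0.05.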
